A study of Mus musculus with 36 samples.

Results

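The early response of C3H mouse lung to NNK was described from 8 of the 36 arrays of the study. The 8 arrays were all those of C3H lungs labelled week 3 or week 6, with 2 arrays for each pair of treatment and week, so that 4 NNK arrays were set against 4 untreated arrays with the weeks matched. The NNK mice received 4 weekly injections of 100 mg/kg, and the controls are labelled untreated, with no vehicle named. The weeks are given as time after exposure, and the labels do not say whether they run from the first or the last injection. The comparison asked which genes differ between exposed and unexposed lungs of this strain before mature tumours are present. C3H is an inbred strain in which NNK gives fewer lung tumours than in A/J, the strain that makes up the rest of the study. The age and sex of the mice are not given in the sources used here. Nothing in the labels ties the 2 arrays of a group to different mice, so the p-values cover the spread between arrays alone, and that spread may be technical.

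NNK is a nitrosamine of tobacco smoke. Cytochrome P450 enzymes of the lung turn it into products that methylate and pyridyloxobutylate DNA. Damaged DNA stabilises p53, a transcription factor that binds paired half-sites in the genes it activates, among them genes that halt the cell cycle, restrain growth signalling, repair DNA or start cell death. p53 also acts indirectly to repress genes of cell division, through complexes that sit on CCAAT boxes and on an element spelled TTTGAA in their promoters. The lung is a mixture of alveolar, airway, vascular, immune and mesothelial cells, the last of which line its surface. In whole lung, fewer cells of a type and less RNA per cell cannot be told apart.

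Levels below are normalized log2 intensities from Affymetrix Mouse Gene 1.0 ST arrays, and changes are differences of log2 levels, NNK minus untreated, with the standard error of the limma fit. The deposited median intensities of the 8 arrays lay between 300.2 and 321, and any pair of these arrays correlated at 0.974 or above. Sftpc, Sftpb, Scgb1a1, Ager and Cdh5 were all at percentile 99.8 of the genes or higher. They mark alveolar type 2, club, alveolar type 1 and endothelial cells. Foxj1, which marks ciliated cells, was at percentile 56.45. Among genes of tissue that can be taken with the lung, the skin genes Lor and Krt1 were at percentiles 14.2 and 64.4. The fat gene Adipoq was at 42.6, and the muscle genes Acta1 and Myh6 were at 70.8 and 76.4. Krt1, Acta1 and Myh6 thus lay above Foxj1. The 2 arrays of a group differed by a median of 0.0596 to 0.0809 in 3 of the 4 groups and by 0.106 in the NNK group of week 3. No deposited value was the same in both arrays of a group. NNK array 1 of week 3 stands apart from the others in several results, and values with and without it are given there.

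Of 14953 genes tested, 24 changed at weeks 3 and 6 together, which is 0.161% of the genes. The split was even, with 12 higher and 12 lower, and on the deposited scale without normalization between arrays it was 20 higher and 12 lower. A further measure of the breadth is that 1913 genes had an unadjusted p under 0.05. The 24 changes had a median size of 0.37, and 6 of them were at least 1.5-fold. At both weeks 22 of the 24 had the same direction, the exceptions being Saa3 and Ifi27l2b. In 17 of the 24 the NNK arrays did not overlap the untreated arrays, which was so for 4.67% of all genes tested. The median change over all genes was -0.01.

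Psrc1 stood highest among the p53 targets. It encodes a spindle protein and is induced by p53. Its levels in the 4 untreated arrays ran from 7.86 to 8.06, against 8.99 and 9.01 in NNK lungs of week 3 and 8.86 and 8.87 in those of week 6. All NNK arrays were well above all untreated arrays, and the NNK arrays of both weeks were alike. The change of 0.96 ± 0.05 is a 1.94-fold rise (adjusted p = 1.17e-06), and Psrc1 also passed at week 3 alone (0.97) and at week 6 alone (0.94).

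Dglucy, the D-glutamate cyclase gene, had levels of 8.71, 8.81, 8.64 and 8.56 in untreated lungs and 9.12, 9.19, 9.18 and 9.10 in NNK lungs. The groups were apart at both weeks, and the gene rose by 0.47 ± 0.04 (adjusted p = 1.26e-04). Ccng1, the cyclin G1 gene, had levels of 11.97 to 12.11 in untreated lungs and 12.32 to 12.40 in NNK lungs. It rose by 0.33 ± 0.05, with the same change of 0.33 at week 3 and at week 6. Eda2r encodes a receptor of the tumour necrosis factor receptor family and rose by 0.36 ± 0.06, from levels of 7.55 to 7.77 to levels of 7.96 to 8.14. Ddit4l, which restrains mTOR signalling, rose by 0.33 ± 0.06, and its highest untreated level, 7.79, lay just under its lowest NNK level, 7.82. Without NNK array 1 of week 3 the calls of Eda2r and Ddit4l were lost, with changes of 0.33 and 0.32. The loss was not particular to that array. Over the 8 fits that each left out 1 array, Ccng1 passed in 4, Eda2r in 2 and Ddit4l in 1.

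**Figure D1:**
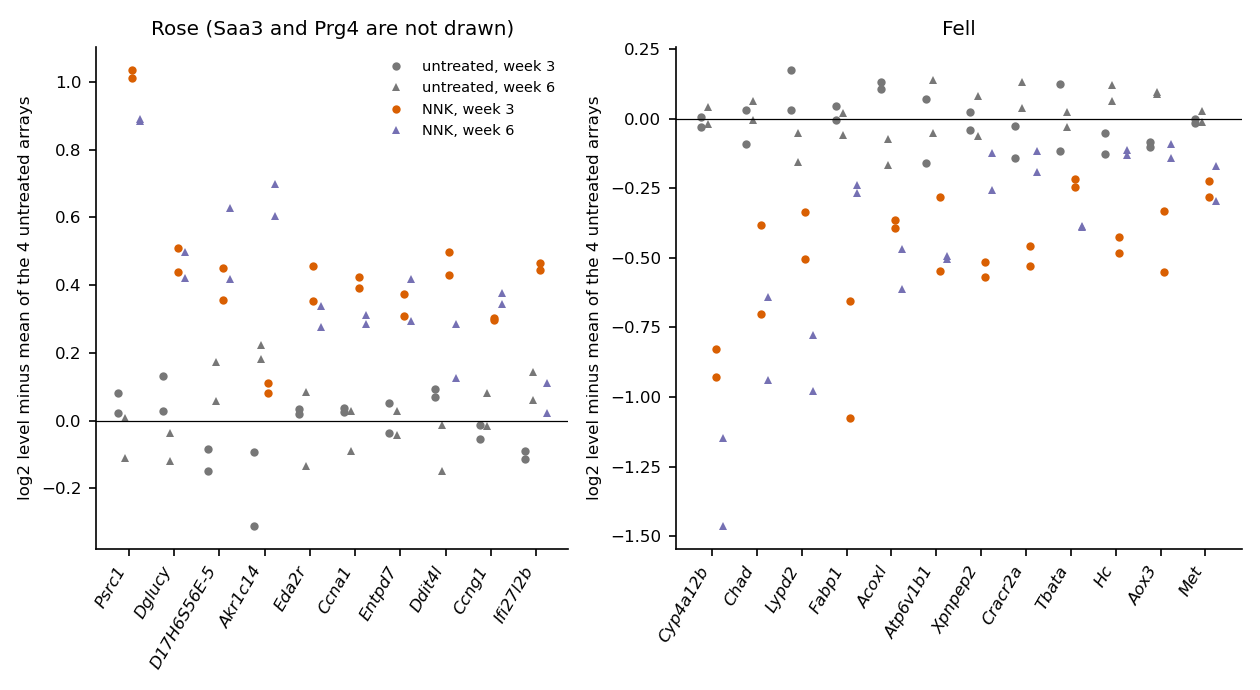
Level of each of 22 called genes in every array minus the mean of the 4 untreated arrays, on the log2 scale, with grey marks for untreated, orange for NNK at week 3 and violet for NNK at week 6. Psrc1 is near 1 in all NNK arrays, Cyp4a12b and Lypd2 are lowest at week 6, Fabp1 is lowest at week 3, and Saa3 and Prg4 are left out because their week 3 values would compress the axis.

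These 5 genes were the called members of a list of p53 targets and DNA damage response genes. Of 40 genes listed, 35 were tested, and 5 rose and 0 fell, where 0.0803% of all genes tested passed in each direction. This list and the others here were written with earlier results of these data known, so such shares are a description and not a test. Among the 35, 25 were higher and 10 lower, where 43.8% of all genes had changes above 0. The NNK arrays were above all untreated arrays for 10 and below them for 0, beside 2.03% and 2.65% of all genes. The list's median change was 0.07, at week 3 it was 0.05 and at week 6 it was 0.12. Its mean level was 9.56, 9.62, 9.57 and 9.57 in the NNK arrays and 9.51, 9.48, 9.41 and 9.44 in the untreated arrays, so the groups did not overlap. When each of the 8 arrays was left out in turn the number that rose was between 2 and 7, and without NNK array 1 of week 3 it was 3.

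Some members fell short of the threshold with separate or nearly separate groups. Phlda3, which restrains AKT, had levels of 10.34 to 10.39 in untreated lungs and 10.60 to 10.73 in NNK lungs, a change of 0.28 ± 0.05 that missed the threshold (adjusted p = 0.061). Trp53inp1, which promotes p53-dependent death, had a change of 0.26 with overlapping groups. Sesn2, a stress sensor, had a change of 0.20, and Mdm2, whose product marks p53 for degradation, a change of 0.12, both with groups apart and neither past the threshold. Other members were near 0. The pro-apoptotic gene Bbc3 had a change of 0.01, Pmaip1 a change of -0.09, the DNA damage recognition gene Ddb2 a change of -0.02 and Btg2 a change of 0.00 with a standard error of 0.21. Cdkn1a and Bax lie on no probe set with 1 gene symbol, so neither is among the genes tested. Probe sets with several symbols or none were fitted apart, and no gene was assigned to them here.

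The promoters of genes that rose are shown because p53 sites are known from this class of gene. The windows are the 250 bases before the RefSeq start on GRCm38.p6. The p53 consensus half-site was searched for on both strands with no mismatch, and 7.16% of the 27025 RefSeq promoters held it. It was found in 4 of the 25 p53 list members with a promoter there (16%) and in 2 of the 10 genes that rose and had one, Ccng1 and Ddit4l. Psrc1, Dglucy and Eda2r had 0 matches. The half-site was also in 3 of 27 proliferation promoters (11.1%) and in 6.33% of the promoters of genes tested. Pairs of half-sites were not searched for. In Ccng1 (chr11:40755287-40755536, minus strand) the first base of the match lies 185 bases before the start, and in Ddit4l (chr3:137623422-137623671, plus strand) it lies 90 bases before. Capitals mark the match.
Ccng1: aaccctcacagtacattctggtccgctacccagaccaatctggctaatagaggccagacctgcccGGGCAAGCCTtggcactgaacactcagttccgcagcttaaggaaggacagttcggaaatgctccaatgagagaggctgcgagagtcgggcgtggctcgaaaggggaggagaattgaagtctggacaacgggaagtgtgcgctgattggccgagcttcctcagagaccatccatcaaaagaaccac
Ddit4l: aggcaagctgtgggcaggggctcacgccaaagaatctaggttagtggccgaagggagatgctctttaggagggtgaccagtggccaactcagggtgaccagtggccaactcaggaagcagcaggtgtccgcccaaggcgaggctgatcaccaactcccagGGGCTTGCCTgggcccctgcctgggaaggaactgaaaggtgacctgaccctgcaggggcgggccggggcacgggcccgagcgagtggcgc

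Genes of cell division had higher levels in NNK lungs, and none passed the test. Of 33 proliferation genes tested, 0 rose and 0 fell, while all 33 had changes above 0 and 21 had an unadjusted p under 0.05. The list's median change was 0.33, against -0.01 over all genes, and it was 0.30 at week 3 and 0.30 at week 6. On the deposited scale without normalization 2 of them rose, as did 2 without untreated array 1 of week 3 and 4 without NNK array 2 of week 3. Groups were apart upward for 9 of the 33, beside 2.03% of all genes. The mean level of the list was 8.89, 9.00, 8.87 and 8.75 in NNK lungs and 8.79, 8.51, 8.53 and 8.52 in untreated lungs. Untreated array 1 of week 3 was thus higher than the other untreated arrays and above 1 NNK array. The list's median was 0.25 to 0.39 when each array was left out in turn. The higher levels were not particular to the early weeks. At weeks 9 and 12 the list's median change was 0.23, and all 33 genes were higher. Its mean level was then 8.31 to 8.71 in NNK lungs and 8.23 to 8.30 in untreated lungs.

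The smallest p-values of the list belonged to genes of mitosis. Ube2c, which encodes an enzyme of the anaphase-promoting complex, had untreated levels of 9.51, 9.28, 9.12 and 9.37, and its NNK levels ran from 9.73 to 10.31. Its groups were apart, and its change was 0.66 ± 0.12 (adjusted p = 0.061). The cyclin genes Ccnb2 and Ccna2 had changes of 0.48 and 0.52, and the mitotic kinase genes Aurka and Aurkb changes of 0.29 and 0.54. Mki67, whose product marks cycling cells, had a change of 0.44, and Top2a, the DNA topoisomerase of mitosis, one of 0.49. In A/J lungs at the same weeks the median of this list was 0.27, and none of these 7 genes passed there either.

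Promoters of this group are shown for Ube2c and Ccnb2, and that of Psrc1 beside them, since all carry CCAAT boxes. CCAAT on either strand was present in 20 of 27 proliferation promoters (74.1%), in 7 of the 10 promoters of genes that rose (70%) and in 34.5% of all promoters. TTTGAA was present in 8 of the 27 (29.6%) and in 0 of the 10 promoters of genes that rose. It was present in 11.1% of the promoters of genes tested and in 16.3% of all promoters. Psrc1 (chr3:108383554-108383803, plus strand) has 2 matches, Ube2c (chr2:164769679-164769928, plus strand) has 6, of which a pair overlaps, and Ccnb2 (chr9:70421555-70421804, minus strand) has 3. Capitals mark CCAAT or its reverse complement, ATTGG.
Psrc1: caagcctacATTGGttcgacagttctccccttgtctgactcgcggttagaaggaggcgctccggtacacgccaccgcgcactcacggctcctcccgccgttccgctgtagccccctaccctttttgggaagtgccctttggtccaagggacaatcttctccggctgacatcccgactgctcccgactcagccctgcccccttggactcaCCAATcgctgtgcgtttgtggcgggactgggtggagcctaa
Ube2c: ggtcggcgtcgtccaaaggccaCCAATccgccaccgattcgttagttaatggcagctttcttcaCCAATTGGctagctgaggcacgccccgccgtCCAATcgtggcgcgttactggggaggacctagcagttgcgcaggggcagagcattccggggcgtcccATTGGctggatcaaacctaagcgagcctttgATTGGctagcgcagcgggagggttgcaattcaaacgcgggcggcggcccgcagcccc
Ccnb2: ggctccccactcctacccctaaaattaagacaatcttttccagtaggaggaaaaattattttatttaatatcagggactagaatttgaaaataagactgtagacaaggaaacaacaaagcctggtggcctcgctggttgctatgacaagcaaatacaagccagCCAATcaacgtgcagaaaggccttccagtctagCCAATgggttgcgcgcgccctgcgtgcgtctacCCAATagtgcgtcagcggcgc

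A match in these windows is a description, and no binding was measured.

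Outside the p53 list, several rises of like size were seen, some with groups apart. Ccna1, the cyclin A1 gene, rose by 0.35 ± 0.05, from 7.66 to 7.79 in untreated lungs to 8.04 to 8.18 in NNK lungs. It was the only called member of the ciliated cell list. Entpd7, which encodes a nucleoside triphosphatase, rose by 0.35, and D17H6S56E-5 by 0.46, both with groups apart. Akr1c14, a hydroxysteroid dehydrogenase gene, rose by 0.37, with untreated levels of 9.65 to 10.19 that overlapped NNK levels of 10.05 to 10.66, and both groups were higher at week 6 than at week 3. Ifi27l2b, of a family of interferon-induced genes, rose by 0.26 over both weeks, with changes of 0.56 at week 3 and -0.04 at week 6.

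Saa3 and Prg4 had the largest changes, and both came from week 3. Saa3, an acute-phase serum amyloid gene, had NNK levels of 13.33 and 11.76 at week 3 and 7.84 and 7.82 at week 6, and untreated levels of 7.61, 7.50, 8.34 and 7.86. Only the 2 NNK arrays of week 3 were high, and at week 6 the NNK levels lay within the untreated range. The change was 4.99 ± 0.34 at week 3 and -0.27 ± 0.34 at week 6, and this difference between the weeks, -5.26 ± 0.48, was the only one that passed (adjusted p = 5.27e-04, 0.00669% of genes). Saa3 did not pass for it with trended and robust variances or with the spread taken from all 36 arrays, and a filter at the 50th percentile left it untested. At an unadjusted p under 0.05, 2131 genes differed between the weeks.

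Prg4, which encodes the joint and serosal lubricant lubricin, had NNK levels of 12.52 and 9.67 at week 3 and 6.84 and 6.61 at week 6, with untreated levels of 6.52 to 6.81. NNK array 1 of week 3 was higher than array 2 by more than any untreated array differed from another. Prg4 changed by 4.40 ± 0.56 at week 3 and by 2.29 ± 0.40 over both weeks. Leaving out array 1 of week 3 gave 1.58 over both weeks for Prg4 and 1.97 for Saa3, and both still passed. When each of the 8 arrays was left out in turn, Saa3 passed in 8 fits and Prg4 in 2, with an adjusted p for Prg4 of up to 0.165. An untreated A/J array of week 3 had similar levels, 12.32 for Saa3 and 11.30 for Prg4, while the other untreated A/J array of that week had 7.63 and 7.38.

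Prg4, with the limit on its entry to the test given above, was the only called member of the mesothelial list. The list moved with the same array. Of 18 mesothelial genes tested, 1 rose and 0 fell, 16 were higher, and the median change was 0.34, with 0.66 at week 3 and 0.06 at week 6. The mean level of the list was 11.04 in NNK array 1 of week 3 and 10.20 in array 2, against 9.97 and 10.03 in the NNK arrays of week 6 and 9.80 to 9.96 in untreated lungs. Without array 1 the median was 0.10. Msln, the mesothelin gene, had levels of 10.59, 10.04, 10.16 and 10.14 in NNK lungs and 9.46 to 9.98 in untreated lungs, a change of 0.45 that missed the threshold (adjusted p = 0.0899). Wt1, a transcription factor gene of mesothelium, was at 10.74 in array 1 and at 8.36 to 8.84 in the other 7 arrays.

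Matrix genes had their highest mean level in the same array. Of 26 extracellular matrix genes, 0 passed, 25 were higher, and the median was 0.17 over both weeks, 0.32 at week 3 and 0.01 at week 6. Its mean level was 11.35 in NNK array 1 of week 3 and 10.72 to 10.88 in the other 7 arrays, and without that array the median was 0.04. Timp1, a metalloproteinase inhibitor gene, was at 10.84 and 9.24 in NNK lungs of week 3 and at 8.36 to 8.65 in the other arrays. Arg1, the arginase gene of alternatively activated macrophages, was at 12.24 in array 1, 8.71 in array 2 and 7.48 to 7.70 elsewhere. Its list, of 13 genes tested, had 0 past the threshold, 10 higher and a median of 0.10, with mean levels of 9.60 and 9.22 in NNK lungs of week 3 and 8.84 to 9.04 in the other arrays. Of 21 alveolar macrophage genes 9 were higher, with a median of -0.04 and a mean level of 10.65 in array 1 beside 10.56 to 10.62 in untreated lungs. The mean level of the A/J array named above for the mesothelial list was 10.89, and it carried no NNK. The part of mesothelial tissue in the Saa3, matrix and Arg1 values was not tested.

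**Figure D2:**
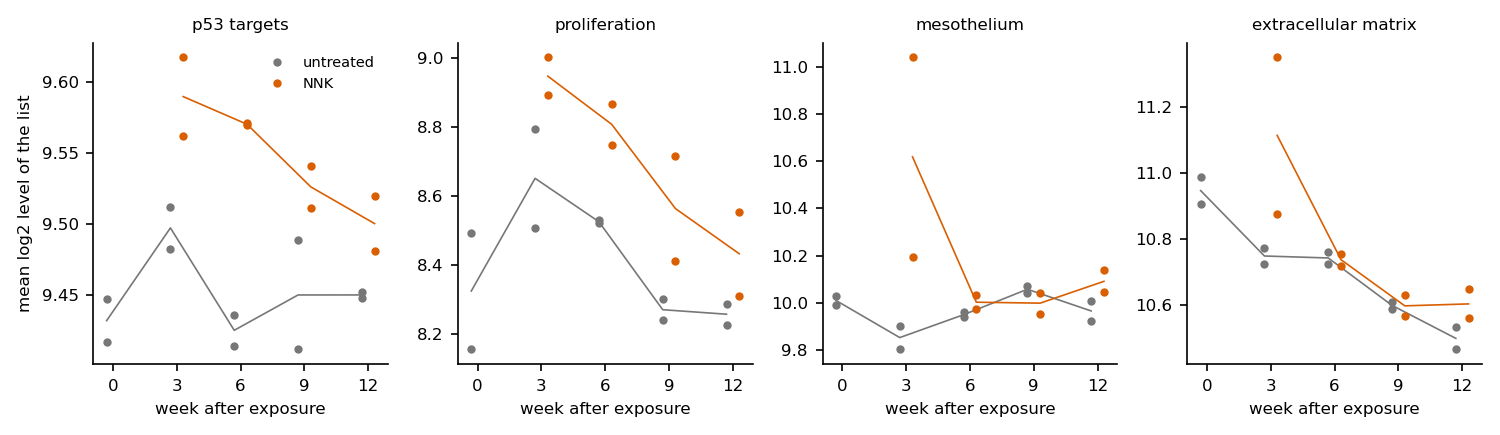
Mean log2 level of the members of 4 gene lists in each C3H array by week after exposure, with grey points for untreated and orange for NNK arrays, lines through the means of 2 arrays, and a separate vertical range in each panel. The lines of the p53 and proliferation lists lie higher in NNK lungs at weeks 3 and 6 and also at weeks 9 and 12. The mesothelial and matrix lists are highest in NNK array 1 of week 3, at 11.04 and 11.35.

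Cyp4a12b had the largest of the 12 falls. This fatty acid hydroxylase gene had untreated levels of 8.95, 8.92, 8.99 and 8.93 and NNK levels of 8.02, 8.12, 7.49 and 7.80. The untreated arrays were close together, all NNK arrays were lower, and week 6 was lowest. The gene fell by 1.09 ± 0.16 (0.469-fold, adjusted p = 0.0121), and by 0.86 and 1.32 at weeks 3 and 6, neither past the threshold alone.

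Chad, the gene of the cartilage matrix protein chondroadherin, had untreated levels of 9.66 to 9.82 and NNK levels of 9.05, 9.37, 8.81 and 9.11. It fell by 0.67 ± 0.08 (adjusted p = 2.66e-03). Of 10 tested members of the cartilage and trachea list it was the only one that fell, and Col2a1, the main cartilage collagen gene, had a change of 0.16. Lypd2, a gene of the Ly6 family, had untreated levels of 9.64 to 9.98 and NNK levels of 9.46, 9.30, 9.02 and 8.82. It fell by 0.65 ± 0.08 (adjusted p = 2.66e-03). Chad and Lypd2 also passed at week 6 alone.

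Other falls were larger at week 3. Fabp1, a fatty acid carrier gene, was at 7.43 and 7.85 in NNK lungs of week 3, at 8.27 and 8.24 in those of week 6 and at 8.45 to 8.55 in untreated lungs. It fell by 0.56 ± 0.08, and its change at week 3 was -0.88 against -0.23 at week 6. Xpnpep2, an aminopeptidase gene, fell by 0.37 ± 0.05, with NNK levels of 8.55 and 8.61 at week 3 and 9.00 and 8.86 at week 6 against 9.06 to 9.20 in untreated lungs. The difference between the weeks did not pass for either (adjusted p = 0.217 and 0.251).

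Atp6v1b1, a proton pump subunit gene, fell by 0.46, and Tbata by 0.31, both with groups apart. Cracr2a, which takes part in calcium entry, fell by 0.32, and its second probe set had a change of -0.18. Met, the receptor gene of hepatocyte growth factor, fell by 0.24, from 10.13 to 10.17 in untreated lungs to 9.85 to 9.97 in NNK lungs, with groups apart. Aox3, the aldehyde oxidase gene, fell by 0.28 with overlapping groups. It was the only called member among 20 tested xenobiotic metabolism genes, whose median was -0.04. Cyp2e1, a P450 gene of nitrosamine activation, had a change of -0.25 with groups apart (adjusted p = 0.212).

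Alveolar type 2 genes held 2 of the falls. Hc, the complement C5 gene, had untreated levels of 12.15, 12.23, 12.40 and 12.34 and NNK levels of 11.80, 11.86, 12.17 and 12.15. The groups were apart within each week and overlapped across weeks, and the gene fell by 0.29 ± 0.04. Acoxl, an acyl-CoA oxidase-like gene, fell by 0.46 ± 0.07, from 9.97 to 10.27 to 9.53 to 9.77. Of 23 genes on the list 0 rose and 2 fell, beside 0.0803% of all genes in each direction, 8 were higher, and the median was -0.05. Without NNK array 1 of week 3 none fell and the median was -0.020, and without array 2 of that group 4 fell and it was -0.088. When each of the 8 arrays was left out in turn, Hc passed in 2 fits and Acoxl in 1. Groups were apart downward for 6 and upward for 2, and the background of genes with groups apart was 2.65% lower and 2.03% higher. Lpcat1, an enzyme gene of surfactant lipid synthesis, had a change of -0.17, and Chia1, the acidic chitinase gene, one of 0.22, neither past the threshold.

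No blood endothelial gene passed, yet all 28 tested had changes below 0, with a median of -0.08, where 43.8% of all genes had changes above 0. Groups were apart downward for 4, beside 2.65% of all genes. The median was -0.16 at week 3 and -0.03 at week 6, and at week 6 alone 11 of the 28 had changes above 0. Without NNK array 1 of week 3 the endothelial median over both weeks was -0.06. Tie1, an endothelial receptor kinase gene, had NNK levels of 11.35, 11.39, 11.66 and 11.58 and untreated levels of 11.69 to 11.80, a change of -0.24 (adjusted p = 0.0803). Plvap, of the endothelial diaphragm, had a change of -0.28 at each week. All 12 platelet genes also had changes below 0, with a median of -0.20, and without NNK array 1 of week 3 the median was -0.13. Without array 2 of that group 2 endothelial and 2 platelet genes fell. Ppbp, the platelet basic protein gene, had NNK levels of 10.70, 11.04, 10.56 and 10.35 and untreated levels of 11.04 to 11.38, a change of -0.60 (adjusted p = 0.0803). Genes of tissue that can be taken with the lung were lower as well: of 18 cardiac genes 17 had changes below 0, with a median of -0.23, and of 12 adipose genes 12 did, with a median of -0.16, with 0 past the threshold in both. The mean cardiac level was 9.15 to 9.35 in NNK arrays and 9.36 to 9.58 in untreated arrays. Its part in the endothelial and platelet values was not tested.

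Further responses held few or no called genes. None of 19 DNA repair genes (median -0.03), 20 NRF2 and oxidative stress genes (median 0.07) or 21 interferon genes (median -0.03) passed. Yet 17 of the 20 NRF2 genes were higher, and the mean levels of that list did not overlap. They were 10.55 to 10.63 in NNK arrays and 10.44 to 10.53 in untreated arrays. Ephx1, the microsomal epoxide hydrolase gene, had NNK levels of 12.03 to 12.10 and untreated levels of 11.83 to 11.89, a change of 0.21 that missed the threshold (adjusted p = 0.061). Of 24 club and secretory cell genes 0 passed, 8 were higher and 16 lower, and the median was -0.07. At an unadjusted p under 0.05, 3 of them were higher, Krt15, Upk1a and Upk3a, with changes of 0.28, 0.39 and 0.27 and groups apart. By the same measure 7 were lower, among them Bpifa1 (-1.10), Scgb3a1 (-0.67) and Muc5b (-0.57), which encode secreted airway proteins. Retnlg, a neutrophil gene, had a change of 0.62 with overlapping groups, and the neutrophil list, of 17 tested, a median of 0.11. The list's median was 0.15 at week 3 and -0.03 at week 6. Its mean level was 9.37 in NNK array 1 of week 3 and 9.07 in array 2. It was 8.69 and 8.73 in NNK arrays of week 6 and 8.75 to 8.94 in untreated arrays. Of 21 alveolar macrophage genes 1, Fabp1, fell.

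Taken singly, the weeks differed in how many genes passed: 25 at week 3 (0.167%, 10 higher and 15 lower) and 4 at week 6 (0.0268%). Psrc1, Dglucy, Chad and Lypd2 were the 4 of week 6. Of the 25 of week 3, 10 were among the 24 called over both weeks, and 16 had the same direction at week 6. Meox1, a homeobox gene, fell by 0.56 and Nexn, an actin-binding protein gene, by 0.60 at week 3, with changes of -0.11 and 0.15 at week 6. Week 3 counts depended on single arrays. Without NNK array 2 of week 3, which leaves array 1 alone, 1306 genes passed at week 3 and 480 over both weeks, and without array 1 the counts were 8 and 13. Of the 13, 10 were among the 24.

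**Figure D3:**
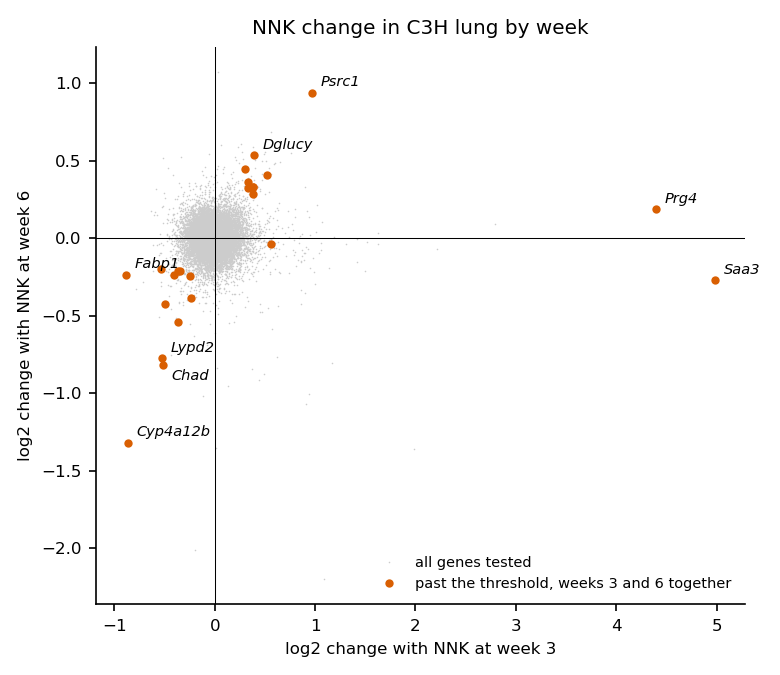
Change with NNK at week 3 (horizontal) against week 6 (vertical) for 14953 genes on the log2 scale, with the 24 genes called over both weeks in orange. Psrc1 and Dglucy lie near the diagonal, and Saa3 and Prg4 lie far right, at 4.99 and 4.40, with values near 0 at week 6.

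Histone genes were among the week 3 calls, and this group was put together after the values had been seen. Of 26 tested, which are cluster histone genes apart from H1f7 and H1f10, 23 were higher at week 3 and 13 at week 6, with medians of 0.29 and 0.01. At week 3, 4 of the 26 rose, beside 0.0669% of all genes. H1f5 rose by 0.67 ± 0.11, H2bc1 by 0.46, H2bc9 by 0.41 and H2ac1 by 0.38. The levels of H1f5 were 10.03 and 10.02 in NNK lungs of week 3 and 9.19 to 9.52 in the other 6 arrays. The clustered histone genes are near-identical copies whose probes can read more than 1 of them, so which copy rose is uncertain. For these 4 both NNK arrays of week 3 were above the other 6 arrays, while H2bc21 and H4c4 had changes of -0.15 and -0.03 at week 3.

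At weeks 9 and 12 the early changes were smaller. Of the 24 genes, 22 kept their sign there, where 56.0% of all genes did, and the median size was 0.16 against 0.37. The genes were chosen for their early size, so the smaller later size is a description and not a test. Psrc1 was the only gene of all tested that passed at weeks 9 and 12 (0.00669%, with 568 genes at an unadjusted p under 0.05). Its NNK levels were 8.70, 8.44, 8.45 and 8.46 against 7.86 to 7.98 in untreated lungs, a rise of 0.61 ± 0.05 (adjusted p = 3.52e-04). The difference between its early and late change, 0.34 ± 0.08, did not pass (adjusted p = 0.879), and neither did that of any other gene in limma, with 834 at an unadjusted p under 0.05. The largest early minus late difference among the called genes was that of Saa3, 2.40 (adjusted p = 0.0898). Eda2r and Fabp1 had late changes of 0.03 and -0.01.

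**Figure D4:**
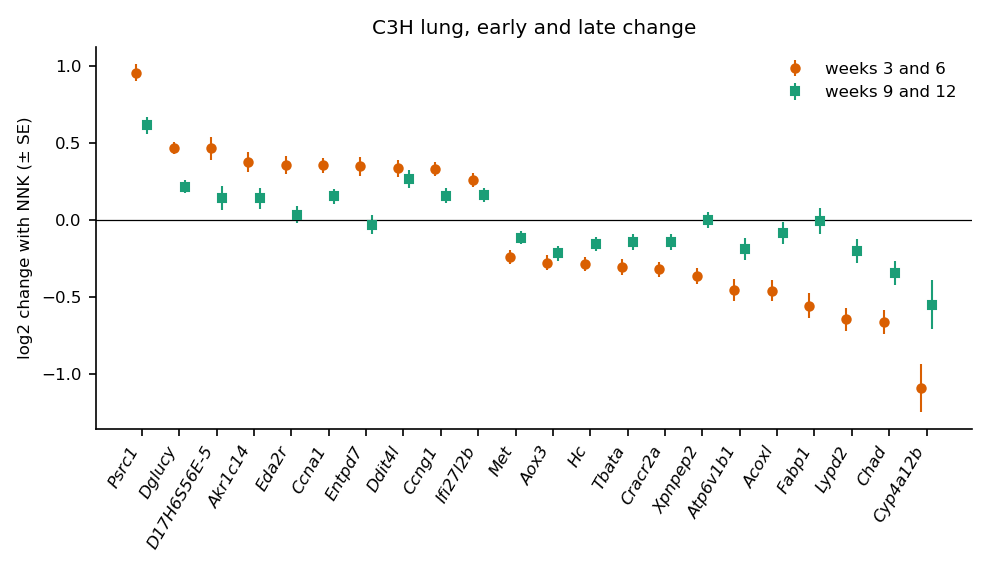
Change with NNK in C3H lung with its standard error for 22 called genes, at weeks 3 and 6 (orange circles) and at weeks 9 and 12 (green squares), on the log2 scale, with Saa3 and Prg4 left out. Psrc1 goes from 0.96 to 0.61, and Eda2r, Xpnpep2 and Fabp1 are near 0 at the later weeks.

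In A/J lungs at the same weeks 488 genes changed (3.26%). That count came from the fit on 36 arrays, in which 11 genes passed in C3H, and the 24 came from the C3H arrays alone. Of the 24 C3H genes 21 had the same direction in A/J, which held for 44.9% of all genes, and 13 also passed there in that direction. Psrc1 had NNK levels of 8.75, 8.91, 9.43 and 8.99 in A/J against 7.70 to 7.96 in untreated lungs, a change of 1.19 beside 0.96 in C3H. The p53 target genes had larger values in A/J for Dglucy (0.80), Ccng1 (0.60), Eda2r (0.68) and Ddit4l (0.65). The differences between the strains were tested and did not pass for any of these, nor for any of the 24. For Dglucy the C3H minus A/J difference was -0.33 ± 0.07 (adjusted p = 0.0533) and for Ccng1 -0.27 ± 0.08 (adjusted p = 0.14). The p53 list had a median of 0.19 in A/J and 0.07 in C3H.

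The strain difference in the NNK change passed for 12 genes (0.0803%), 9 lower and 3 higher in C3H, with 2329 at an unadjusted p under 0.05. This count moved with single arrays. It was 750 (121 higher and 629 lower) when the A/J control array with Saa3 at 12.32, array 2 of week 3, was left out. It was 186 without C3H NNK array 2 of week 3, and 32 to 58 without any 1 of 4 other A/J arrays, and the 12 genes were among those called in each of these fits. With the array number as a replicate block it was 35. Lrrc23, a gene of the ciliary axoneme, had C3H levels of 8.48, 8.48, 8.28 and 8.31 without and 8.06, 8.21, 8.31 and 8.37 with NNK. In A/J its levels were 8.36, 8.78, 8.49 and 8.48 without and 9.15, 9.09, 9.10 and 9.10 with NNK. The A/J groups were apart and the C3H groups overlapped, and the difference in change was -0.73 ± 0.10 (adjusted p = 4.38e-04). Dynlrb2, a dynein light chain gene, had a difference of -0.70 and Efcab1 one of -0.56. Lrrc23 and Dynlrb2 are the 2 ciliated list members that passed. Of 31 ciliated genes 9 were higher in C3H, with a median of -0.04, and 29 were higher in A/J, with a median of 0.22.

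Sc5d, of cholesterol synthesis, had a change of -0.12 in C3H and 0.30 in A/J, and it passed for the difference (-0.42, adjusted p = 4.66e-03). The cholesterol and fatty acid synthesis list, of 22 genes, had medians of -0.01 in C3H and 0.25 in A/J. The proliferation list had medians of 0.33 and 0.27. In A/J its mean level was 9.44 in NNK array 1 of week 6 and 8.45 to 8.57 in the other NNK arrays of these weeks. Untreated A/J lungs had 8.27 to 8.74, so the A/J value leans on 1 array. The 3 genes with a higher value in C3H were the skin genes Krt1 (2.70), Hrnr (2.57) and Krt10 (1.76). In C3H their changes were -0.08, -0.07 and -0.17. The skin list had a mean level of 10.18 and 10.56 in A/J control lungs of week 6, against 8.15 to 8.46 in every other array of weeks 3 and 6. At week 3 alone the difference for Hrnr was -0.022, and Krt1 and Krt10 did not pass.

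**Figure D5:**
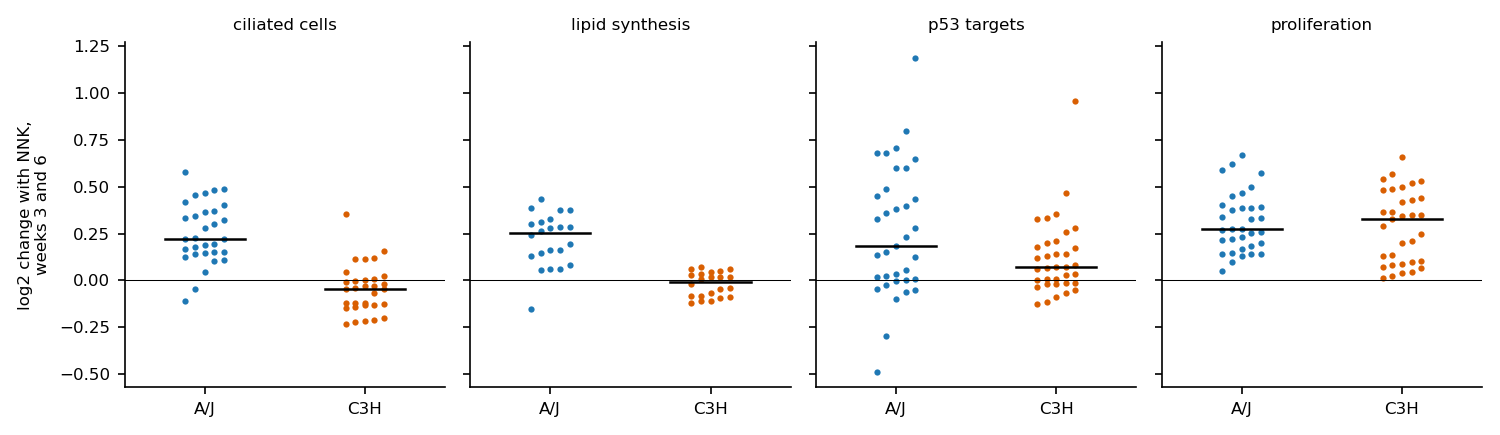
Change with NNK at weeks 3 and 6 for each tested member of 4 gene lists, in A/J (blue) and C3H (orange), on the log2 scale, with black bars at the list medians. The ciliated and lipid synthesis medians are 0.22 and 0.25 in A/J and -0.04 and -0.01 in C3H, while the proliferation medians are 0.27 and 0.33.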

How the data were processed

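Total RNA of whole lung was measured on 36 arrays, of which 18 are C3H. The deposited values are linear intensities, 1 per probe set and array, and the submitters' processing notes name PLIER and Affymetrix Expression Console as the authors' tools; versions, settings and build are not given in the sources used here. Values were turned to log2(intensity + 16), which understates changes of dim genes, and quantile-normalized over 36 arrays, whose log2 medians spanned 0.268. Of 35556 probe sets 21789 had 1 gene symbol, 1621 several and 12146 none in the probe table. The brightest probe set of each of 19938 genes was used, and a filter at the 25th percentile of mean level (7.54) left 14953 genes for testing. limma 3.58.1 in R 4.3.3 fitted a mean for each of the 9 C3H groups (9 residual degrees of freedom), variances were moderated, and the early change is the mean of the differences at weeks 3 and 6. A/J and strain differences came from a fit on 36 arrays. Every adjusted p is limma's with Benjamini-Hochberg adjustment at 0.05 over all genes. The number of arrays limits the precision.

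The array numbers did not pair the groups (correlations of deviations between -0.179 and 0.152). The comparison and the 43 gene lists, written from general knowledge, were chosen with earlier results of these data known. The named genes were the 10 largest rises and falls with 1 direction at both weeks, up to 4 members of smallest p in each list described, and 3 each way for the other contrasts; Saa3, Aox3, Ifi27l2b, Met and some list members were chosen for mention once their values were known. Alternatives were scale, normalization, pseudocount, filter, probe set, variance model, array weights, array number as block, arrays fitted and each array left out. The calculations were tested on simulated data. Promoters are RefSeq's on GRCm38.p6.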

Additional observations from a re-analysis of the deposited data

Results flagged for a closer look

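Among groups of 4 arrays, 1 array lay far from the rest in 5 results, where chance alone marks about 1 group in 20. The NNK and the untreated group of each of the 24 called genes and of several gene lists were looked at. Among so many groups a few such results come by chance, and each group pools weeks 3 and 6. For Ccna1 the gap of the lowest untreated array to the next took 0.898 of the group's range. For the mean of the p53 list it was 0.837 among the NNK arrays, with the highest at 9.62, and for the proliferation list 0.926 among the untreated arrays, with untreated array 1 of week 3 at 8.79. For the alveolar type 2 list it was 0.856 among the NNK arrays and 0.914 among the untreated arrays.

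A difference between groups was found for Saa3, whose NNK change fell by 5.26 from week 3 to week 6, and for 12 genes between the strains. The C3H minus A/J difference was -0.73 for Lrrc23, -0.70 for Dynlrb2, -0.56 for Efcab1, -0.53 for Myb, -0.49 for Mak, -0.44 for Meox2, -0.42 for Sc5d, -0.40 for Yars2 and -0.39 for Tinagl1. It was 2.70 for Krt1, 2.57 for Hrnr and 1.76 for Krt10.

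Probe sets that name no gene or several had no place in the comparisons and were fitted apart, and 2 of them passed in C3H at weeks 3 and 6. The probe set 10359593, with no symbol, changed by -0.42, from 10.84 to 10.41, and 10443463, with several symbols, changed by 0.58, from 11.25 to 11.83.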

How the results depend on the processing

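All 24 called genes kept their direction in the 8 fits that left out 1 array and in those of the 11 other settings that tested them. Psrc1, Dglucy, Chad, Lypd2 and Saa3 passed in all 8, and Psrc1 and Dglucy in every fit. Leaving out 1 array, which lets the lone array of a group vary like the rest, gave 6 to 480 early calls, 2 to 1306 at week 3, 1 to 4 at week 6, 1 to 520 for week 6 minus week 3, 0 to 86 for early minus late and 9 to 750 for the strain difference; the 750 came without array 2 of untreated A/J at week 3. The p53 median was then 0.059 to 0.094. The early count was 46 with trended robust variances, 8 on the 8 arrays alone and 11 with the spread of 36 arrays. At week 3 it was 42 on the deposited scale (22 higher and 20 lower), 13 with pseudocount 1, 11 without a filter, 52 with the filter at the 50th percentile, 51 with trended variances, 5 with array weights and 14 with 36 arrays. At week 6 it was 9 with weights and 2 with 36 arrays. Week 6 minus week 3 gave 0 with the stricter filter and with trended variances, and early minus late gave 1 on the deposited scale and 1 with weights. The strain difference gave 24 with the stricter filter and 6 at week 6 alone, and that of Hrnr turned to -0.022 at week 3. With the array number as a replicate block 15 genes passed at week 3 and 35 for the strain difference; other counts stayed within 1.5 times. The causes were not tested. Genes with a mean level below 7.54 over the 36 arrays were not tested.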
